A study of Mus musculus with 16 samples.

Results

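The mouse replication-dependent histone genes are described here in CD8 T cells from accepted and rejecting kidney allografts. Members were all genes whose symbols start with Hist1, Hist2, Hist3 or Hist4 in the gene list of any of the 9 CD8 count matrices, which gave 67 of 32285 listed genes. They comprise 6 H1, 18 H2A, 18 H2B, 12 H3 and 13 H4 genes, with 54 on chromosome 13, 10 on chromosome 3, 2 on chromosome 11 and 1 on chromosome 6. All 9 matrices list 61 of the members. Hist1h1t is listed in 7 matrices with 13 unique molecular identifiers (UMIs, each counting 1 captured RNA molecule) in all, Hist1h2ah in 6 with 44, of which 36 were in rejecting samples, and Hist2h2aa2 in 3 with 1. Hist1h2aa, Hist1h2ba and Hist1h2bq are listed only for the rejecting samples and had 0 UMIs there.

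The accepted grafts were DBA/2J kidneys placed in C57BL/6J recipients and taken with the recipient spleen at 1, 3 or 24 weeks. The rejecting grafts were C57BL/6J kidneys placed in DBA/2J recipients and taken with the spleen at 1 week, and spleens of naive mice were the remaining group. The mice were male, the recipients' own kidneys were removed, and ages were not given in the sources used here. Accepted and rejecting groups differ in both donor and recipient strain, so strain and graft outcome cannot be told apart where they are compared. The labels name C57BL/6J and wild type for every sample, the rejecting ones included, while the strains given here are those of the study's methods. Viable CD45+ cells were sorted, captured with a 3′ droplet kit, and the cells that the authors named CD8 T cells formed the matrices. Barcode tags separate the cells of each matrix into libraries, taken as 1 mouse each. There were 3, 5 and 3 libraries for accepted kidney at 1, 3 and 24 weeks, the same numbers for accepted recipient spleen, 2 for rejecting kidney, 3 for rejecting recipient spleen and 5 for naive spleen. P-values measure the spread between these libraries.

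The 32 libraries held 56 to 8407 cells and 153266 to 25960721 UMIs, the shallowest being library 2 of the rejecting spleen. Pairs of libraries shared at most 21 cell barcodes, and the largest share was 1.79% of a library. The 24-week matrices went against their labels: the summed level of 8 kidney parenchyma genes was 0 to 0.361 CPM (a gene's UMIs scaled to a common total of all UMIs in the library) in the libraries labelled 24-week kidney and 3.06 to 4.73 CPM in those labelled 24-week spleen, and Cd4 was 61.3 to 67.7 CPM in the first and 6.76 to 9.73 CPM in the second. At 3 weeks the order was the opposite, with parenchyma genes at 5.99 to 10.5 CPM and Cd4 at 4.64 to 8.65 CPM in kidney. The 6 CD8 T cell markers (Cd3d, Cd3e, Cd3g, Trac, Cd8a and Cd8b1) were present in every group, but only Cd8a and Cd8b1 tell CD8 from CD4 T cells. Cd4 was at 0 in both rejecting kidney libraries. In 3-week spleen Cd4 was 60.2 to 96.1 CPM and the 4 B cell markers summed to 109 to 276 CPM. Cells there with a Cd8a or Cd8b1 UMI and no Cd4 UMI were 526 of 1051, 588 of 1296, 638 of 1410, 394 of 929 and 509 of 1205.

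Replication-dependent histone genes supply the histones that package newly copied DNA, and their mRNA accumulates in S phase and is lost when DNA synthesis stops. Their mRNAs usually end after a conserved stem-loop bound by the stem-loop binding protein Slbp and carry no poly(A) tail, whereas 3′ droplet kits capture RNA through a poly(A) stretch. Some members can also be made as polyadenylated transcripts, and the kit reads these. The captured level therefore mixes transcription with the form of the 3′ end. Mki67, a nuclear antigen of cycling cells, and Top2a, a topoisomerase that rises toward mitosis, have ordinary poly(A) tails and served as the reference for proliferation.

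The stem-loop carries the form of 3′ end that limits capture, so the kinds found in the annotated transcripts (GENCODE vM21, GRCm38) are shown first, 5′ to 3′, with the paired stem in capitals and the loop in lower case.

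Most frequent form, 25 members of the H1, H2A, H2B and H3 families: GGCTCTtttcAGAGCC
Form of 6 members, Hist1h3c among them: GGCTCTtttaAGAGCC
Form of Hist2h2ac: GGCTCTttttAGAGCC
Form of Hist1h3g: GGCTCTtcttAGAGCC
Most frequent H4 form, 7 members, Hist1h4d, Hist1h4m and Hist1h4n among them: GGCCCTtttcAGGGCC
Form of 2 H4 members, Hist1h4i among them: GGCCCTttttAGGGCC
Form of 2 further H4 members: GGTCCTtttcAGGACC
Form of 1 H4 member: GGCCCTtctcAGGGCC

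A stem-loop stood in 45 of the 67 annotated members, against 0.311% of 21877 coding genes. The H4 genes differed from the other families in the stem letters. Among the 45, 22 ended within 100 bases of the loop and 23 ran over 100 bases past it, while 22 members had no loop in the annotated transcript, a grouping chosen after values were seen. Of the members named below, Hist1h3c (chr13:23744973-23745602, minus strand) ended 74 bases after its loop, Hist2h2ac (chr3:96220361-96220880, minus) 57 and Hist1h4n (chr13:21831767-21832196, minus) 31. By contrast, Hist1h1c (chr13:23738808-23740367, plus) ran on for 840 bases, Hist1h1e (chr13:23620629-23622558, minus) for 1153 and Hist1h4d (chr13:23581598-23582735, plus) for 770. Hist1h1b (chr13:21779883-21780625, minus) and Hist1h2bc (chr13:23684199-23692908, plus, 2 exons) were annotated without a loop. All but 5 of the 67 members are single-exon genes.

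The promoters of 3 members whose values the results turn on, and of Hist1h2bg, are shown as the 100 bases before the RefSeq start (GRCm38.p6), on the gene's strand. Capitals mark the octamer ATTTGCAT, the CCAAT box (or its complement ATTGG) and the TATA element TATAAA. Hist1h2bg is shown because it carries the octamer, which is known in H2B promoters.

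Hist1h1b, chr13:21780626-21780725, minus: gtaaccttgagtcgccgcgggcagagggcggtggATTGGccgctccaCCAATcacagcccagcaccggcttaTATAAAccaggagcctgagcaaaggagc
Hist1h2bg, chr13:23571300-23571399, plus: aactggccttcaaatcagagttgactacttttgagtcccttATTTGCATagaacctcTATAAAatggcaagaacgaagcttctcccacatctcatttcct
Hist1h3c, chr13:23745522-23745621, minus: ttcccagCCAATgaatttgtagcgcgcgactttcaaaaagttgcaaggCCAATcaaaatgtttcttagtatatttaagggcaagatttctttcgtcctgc
Hist1h4n, chr13:21832198-21832297, minus: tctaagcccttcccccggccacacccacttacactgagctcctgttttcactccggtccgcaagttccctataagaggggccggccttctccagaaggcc

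Promoters of 62 members were matched by gene identifier and searched on both strands from 250 bases before to 50 bases after the start. The octamer was found in 13 (21.0%) against 1.74% of all 32851 promoters, CCAAT in 53 (85.5%) against 37.4% and TATAAA in 35 (56.5%) against 13.6%. The octamer stood only in H2A (7 of 18) and H2B (6 of 16) promoters. CCAAT was in all the H1, H2A, H2B and H3 promoters searched and in 3 of 12 H4 promoters. These matches describe letters in a window and do not show binding.

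A few members carried most of the captured histone RNA. Averaged over the 9 groups, Hist1h1b, a linker histone gene, had 311 CPM, followed by the linker histone genes Hist1h1e at 308 and Hist1h1c at 221 CPM and the core histone gene Hist1h4d at 138 CPM. These 4 made up 51.8% of the summed histone CPM, and the 15 highest members made up 82.8%. The order differed between groups: Hist1h1b held 19.8 to 33.4% of each library's histone UMIs in accepted kidney at 1 week, 3.37 to 4.68% at 3 weeks and 0.114 to 0.471% in naive spleen. Hist1h1c held 6.06 to 7.56%, 21.6 to 27.8% and 19.9 to 22.6% in the same groups, and Hist1h1e 17.8 to 22.4%, 17.8 to 21.8% and 18.1 to 20.6%. A 3′ UMI counts a molecule once, so these levels were not divided by transcript length. Levels of members that share sequence are uncertain, because 32 of the 67 share over 50% of their 50-base words with another gene. Hist1h2ap, an H2A gene, shares 93.1% with Hist1h2ao, Hist1h4n shares 83.2% with Hist1h4m and Hist1h2an shares 80.5% with Hist1h2ah, whereas Hist1h1b shares none and Hist1h4d shares 10.2% with other genes. The transcripts of Hist1h1e and Hist1h2be overlap on the same strand, as do those of Hist3h2a and Trim17.

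**Figure D1:**
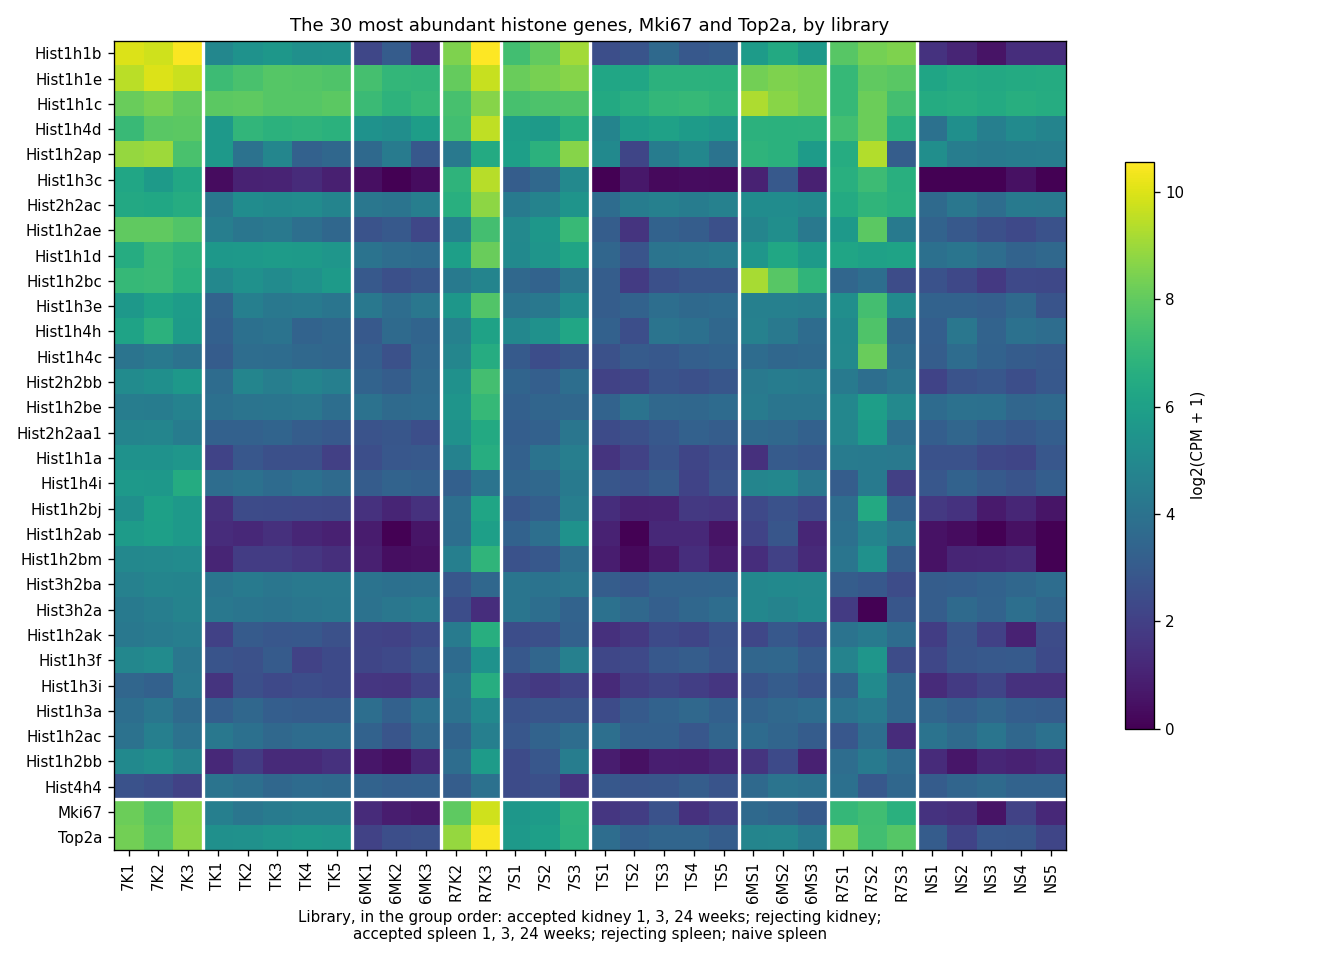
Level of the 30 histone genes with the highest average CPM, and of Mki67 and Top2a, in each of the 32 CD8 libraries, as log2 of CPM plus 1 (colour scale). Columns are libraries ordered by group. Hist1h1b is brightest in the 1-week accepted kidney libraries and library 3 of the rejecting kidney (895 to 1504 CPM), while Hist1h3c is near 0 in the 3-week and naive libraries. The brightest group differs between genes.

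By group mean, the summed histone level was highest in rejecting and accepted kidney at 1 week. It was 3962, 4519.8 and 4321 CPM in the 3 accepted kidney libraries at 1 week, 846, 1017, 996, 961 and 948 CPM in the 5 at 3 weeks and 403, 468, 419, 428 and 427 CPM in naive spleen. In the rejecting kidney it was 1887 and 7220.3 CPM and in the rejecting spleen 1594, 3980.0 and 1536 CPM. The 3980.0 CPM rests largely on 1 cell, which held 448 of that library's 610 histone UMIs. In the accepted recipient spleen at 1 week the summed level was 1059, 1343 and 2385 CPM. Spleen at 3 weeks had 387 to 541 CPM, and the libraries labelled 24-week spleen had 2201, 1785 and 1379.8 CPM. The 2 rejecting kidney libraries lay on either side of all 3 accepted ones. Summed Mki67 and Top2a ran from 416 to 828 CPM in accepted kidney at 1 week and 714 and 2309.6 CPM in rejecting kidney down to 56.4 to 70.0 CPM at 3 weeks and 4.97 to 9.29 CPM in naive spleen. The histone level per unit of Mki67 and Top2a ran in the reverse order, from 2.64 and 3.13 in rejecting kidney and 5.22 to 10.9 in accepted kidney at 1 week to 13.7 to 18.0 at 3 weeks and 43.4 to 93.5 in naive spleen. The reference spanned a wider range than the histone sum, so this order follows from the division. Cells with a Mki67 or Top2a UMI held only 13.7 to 18.2% of histone UMIs at 3 weeks in kidney and 2.21 to 4.53% in naive spleen. There the ratio mostly sets histone RNA of other cells against a low reference.

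**Figure D2:**
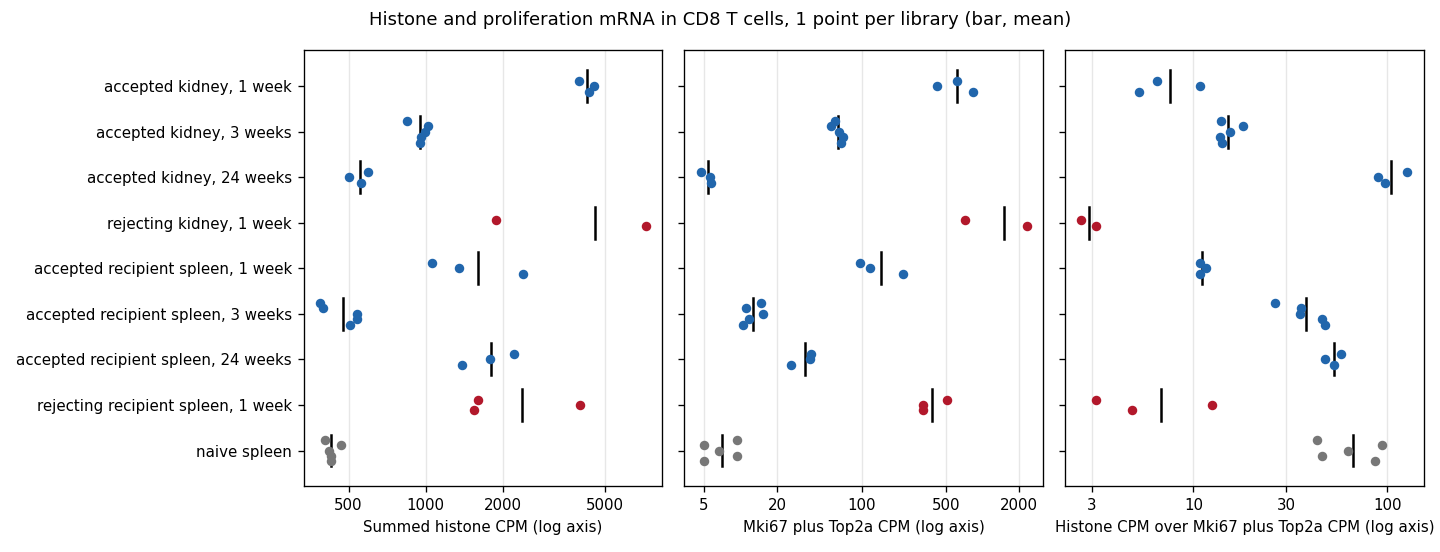
Summed histone CPM (left), Mki67 plus Top2a CPM (middle) and their ratio (right), 1 point per CD8 library on log axes, with bars at group means. Naive spleen has the lowest mean histone level, 429 CPM, and rejecting kidney has the lowest mean ratio, 2.88.

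Within accepted kidney at 1 week, cells with a Mki67 or Top2a UMI, called dividing cells here, held much more histone RNA than the other cells. Dividing cells were 29.7, 31.2 and 48.3% of the cells in the 3 libraries as deposited and 19.2, 14.9 and 31.9% after each cell was thinned to 1000 UMIs. Their summed histone level was 6895, 7583 and 5992 CPM against 1313, 1789 and 1334 CPM in the other cells. With the library as block, 51 of the 55 members that passed the filter on low counts were higher in dividing cells and 0 were lower by edgeR's quasi-likelihood test at an adjusted p under 0.05, where 27.5% of all 10461 genes tested were higher and 15.6% lower. At an unadjusted p under 0.05, 52 were higher and 0 lower, and DESeq2 called 46 higher and 0 lower, where 13.2% and 8.6% of all genes were. The median log2 difference of the members was 2.27, and that of all genes was 0.04. A cell with more UMIs in all is more likely to hold a Mki67 or Top2a UMI.

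The size of this difference varied widely among members. Hist1h1b was 1966 ± 187 CPM (SD, n = 3 libraries) in dividing and 153 ± 50.8 CPM in other cells (log2 difference 3.70 ± 0.08, adjusted p = 2.92e-17, edgeR). After a log2 difference or change, here and below, ± gives a standard error derived from the edgeR test and not an SD. Hist1h3c, a core H3 gene, was 126 ± 21.2 against 6.21 ± 3.55 CPM (4.26 ± 0.15, adjusted p = 1.72e-14). Hist1h2ap was 724 ± 399 against 60.7 ± 26.1 CPM (3.51 ± 0.07, adjusted p = 2.06e-17). The levels of these members were many times higher in dividing cells. Hist1h1c differed less, 347 ± 42.0 against 234 ± 59.3 CPM (0.60 ± 0.06, adjusted p = 5.62e-08). Hist1h2bc, an H2B gene, was 131 ± 20.7 against 121 ± 22.3 CPM (0.11 ± 0.05, adjusted p = 0.0898), and Hist3h2a was 22 ± 3.30 against 22 ± 3.17 CPM (0.00 ± 0.09, adjusted p = 0.983). For both, the level outside dividing cells was close to that inside them. The largest log2 differences were those of Hist1h3b (4.76), Hist1h2af (4.42), Hist1h3c, Hist1h2ab (4.12) and Hist1h1b.

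Members whose annotated transcript ends near the stem-loop had the highest median difference. Of these, 18 of 18 that passed the filter were higher in dividing cells, with a median log2 difference of 2.82. Of those running over 100 bases past the loop, 18 of 20 were higher, with a median of 1.46, and of those without an annotated loop 15 of 17, with a median of 2.63. By family, the test was passed by 5 of 5 H1, 13 of 14 H2A, 14 of 16 H2B, 9 of 9 H3 and 10 of 11 H4 genes. These counts stand against 27.5% of all genes higher and 15.6% lower. Transcript ends are those of the annotation, and the ends used in these cells were not measured. The longest annotated coding transcript of each gene was used. Some members without a loop, such as Hist1h2ai (393 bases, 390 of them coding), are annotated with almost nothing past the coding part, so a loop could not be found there.

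**Figure D3:**
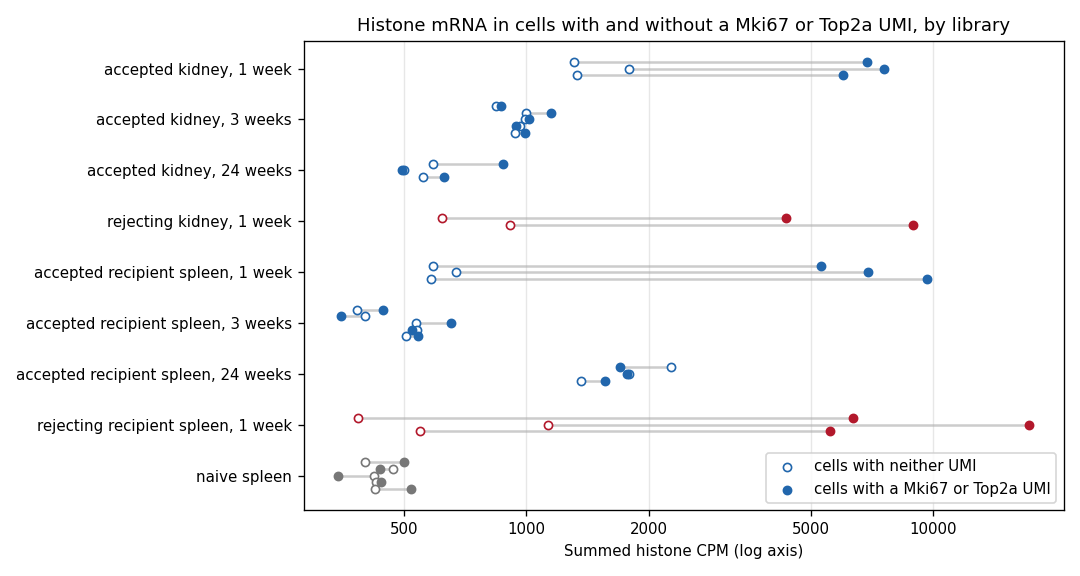
Summed histone CPM (log axis) in cells with a Mki67 or Top2a UMI and in the other CD8 cells of the same library, 1 pair of points per library, by group. In accepted kidney at 1 week the pairs are separated (5992 to 7583 against 1313 to 1789 CPM), and at 3 weeks they lie together (869 to 1152 against 841 to 999 CPM).

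At 3 weeks cells with and without a Mki67 or Top2a UMI had like summed histone levels. Cells with such a UMI in the 5 accepted kidney libraries at 3 weeks had 869, 1152, 1018, 946 and 995 CPM and the others 841, 999, 992, 964 and 940.2 CPM, a ratio of 0.981 to 1.15. Only 10 to 28 cells a library held UMIs of both genes, against 483 to 643 with either, and the share of such UMIs that came from free RNA was not measured. In the cells with both, which had 24579 to 105632 UMIs in all per library, histone RNA was 824 to 1302 CPM, against 7093 to 10979 CPM in the 444 to 2484 such cells of each library at 1 week. The share of cells with a Mki67 or Top2a UMI at 3 weeks was 10.7 to 15.7% as deposited and 4.8 to 6.67% after thinning. In naive spleen, where the share was 1.84 to 3.68%, the levels were 345 to 522 and 400.3 to 469 CPM. In accepted recipient spleen at 1 week they were 5297, 6918 and 9662 against 589, 672 and 582 CPM, a larger ratio than in the kidney. No test was run on these ratios between groups.

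In accepted kidney most histone genes were lower at 3 weeks than at 1 week, and by very unequal amounts. The summed level fell from 4268 ± 283 CPM (SD, n = 3) to 954 ± 66.3 CPM (n = 5), 4.48-fold by geometric means, as are all folds of sums and ratios below, with no overlap between groups (two-sided exact permutation p = 0.0357, the smallest this design allows, 0.0893 adjusted over 10 tests). The ratio to Mki67 and Top2a rose 2.09-fold by geometric means, from an arithmetic mean of 7.52 ± 2.96 to one of 15 ± 1.81, also without overlap (exact permutation p = 0.0357, adjusted 0.0893). Against the summed S-phase genes as reference the direction turned, with a log2 change in the ratio of -0.63, while against the G2 and mitosis genes it was 3.08 (exact permutation p = 0.0357 each, where the log2 change against Mki67 and Top2a was 1.06). Of 56 members tested, 50 were lower at 3 weeks and 2 higher by edgeR, where 21.5% of all 11693 genes were lower and 53.5% higher. The median log2 change was -1.79, and that of all genes was 0.41. With library sizes set to the summed Mki67 and Top2a UMIs, a scaling chosen after the data were seen, the direction turned for many members, and 36 were higher and 11 lower, where 98% and 0.864% of all genes were. In cells without a Mki67 or Top2a UMI, 8 were higher and 16 lower of 45 tested, where 55.6% and 17.4% of all genes were. In summed counts, fewer cells of a type and less RNA per cell cannot be told apart.

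Hist1h1b was 1016, 895 and 1444 CPM at 1 week and 28.5, 40.9, 46.6, 38.0 and 39.5 CPM at 3 weeks (log2 change -4.85 ± 0.16, adjusted p = 4.13e-11, edgeR). Hist1h3c was 74.0, 53.1 and 79.5 CPM and then 0.268, 1.02, 1.09, 1.49 and 0.895 CPM (-6.18 ± 0.22, adjusted p = 5.68e-11). Every 3-week library lay below every 1-week library for both genes, an order in the values tested that adds no support, and the share of all genes so ordered was not counted. Mki67 fell from 293, 197 and 411 CPM to 16.8 to 22.4 CPM (-3.87 ± 0.18, adjusted p = 5.10e-10) and Top2a from 318, 219 and 417 CPM to 38.4 to 48.4 CPM (-2.88 ± 0.15, adjusted p = 1.64e-09). Hist1h1b and Hist1h3c thus changed by more than either proliferation gene on the log2 scale. The largest falls were those of Hist1h3b (-7.26), Hist1h3c, Hist1h2af (-5.64), Hist1h2ab (-5.34) and Hist1h3g (-5.08).

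Other members moved little or rose. Hist1h1c was 280.4, 342 and 262 CPM at 1 week and 215 to 244 CPM at 3 weeks (log2 change -0.36 ± 0.09, adjusted p = 0.00194, edgeR). Hist4h4 (chr6:136801553-136804415, minus), whose transcript runs 2445 bases past its loop, was 5.23, 4.6 and 3.27 CPM and then 10.7 to 15.8 CPM (1.57 ± 0.18, adjusted p = 1.80e-06). Hist2h4 (chr3:96261682-96263311, minus), which runs 1257 bases past its loop, was 4.18, 4.75 and 2.08 CPM and then 7.92 to 11.2 CPM (1.42 ± 0.23, adjusted p = 5.72e-05). These H4 genes were the only members called higher at 3 weeks, and they are named because their count was 2. The median log2 change was -3.70 for members ending near the loop (18 of 19 lower), -1.83 for those without an annotated loop (16 of 17 lower) and -1.10 for those running past it (16 of 20 lower, 2 higher). The share of histone UMIs from members ending near the loop was 14.5 to 23.1% at 1 week and 7.78 to 12.6% at 3 weeks, and the share from members running past it was 43.9 to 50.5% and 75.8 to 78.1%. The level of the nuclear RNA Malat1 moved with these changes, from 6912 to 13939 to 35434 to 38386 CPM. The share of mitochondrial counts went from 3.69 to 4.49% to 2.06 to 2.38%, Cd4 from 16.8 to 31.9 CPM down to 4.64 to 8.65 CPM, and the 4 B cell markers from 8.50 to 9.36 CPM up to 11.5 to 26.4 CPM. The part of these in the changes was not tested.

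**Figure D4:**
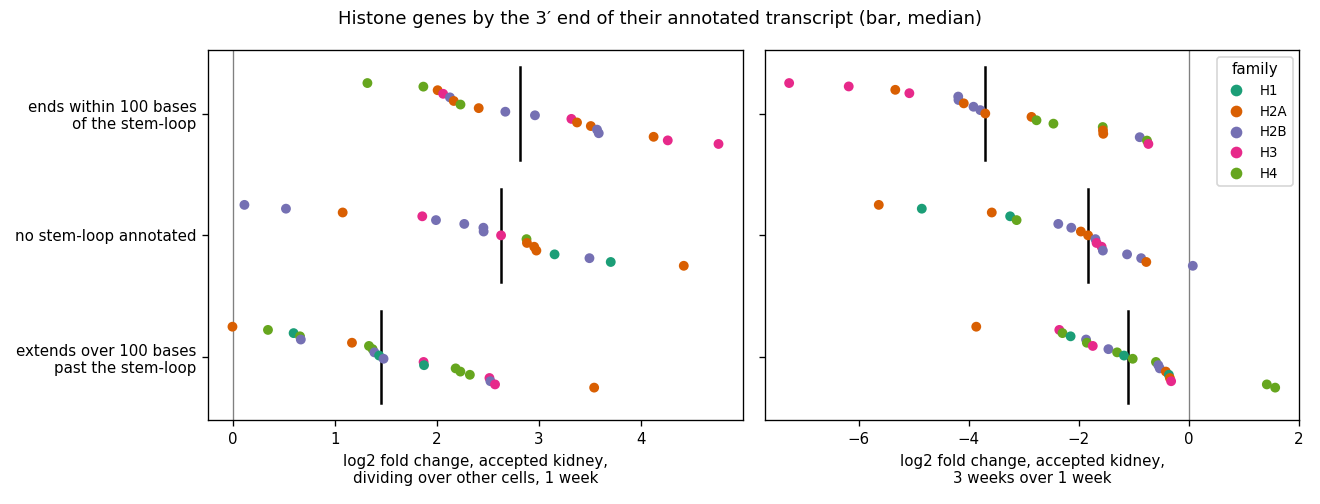
Log2 difference of each tested histone gene between dividing and other cells of accepted kidney at 1 week and between 3 weeks and 1 week, grouped by where the annotated transcript ends relative to the stem-loop, 1 point per gene with bars at medians. Members ending within 100 bases of the loop have medians of 2.82 and -3.70, and those running over 100 bases past it have medians of 1.46 and -1.10.

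The libraries labelled 24-week kidney had 596, 502 and 559 CPM of histone RNA, 1.73-fold below those at 3 weeks by geometric means, and a ratio to Mki67 and Top2a of 89.2 to 127, 6.92-fold higher, both without overlap (exact permutation p = 0.0357 each, adjusted 0.0893). Mki67 and Top2a summed to only 4.69, 5.63 and 5.72 CPM in these libraries, against 56.4 to 70.0 CPM at 3 weeks, so the ratio divides by a very low level. Against the S-phase genes the log2 change in the ratio was -0.19 and against the G2 and mitosis genes 0.78, where it was 2.79 against Mki67 and Top2a. Of 42 members tested 26 were lower and 1 higher by edgeR, and 56.9% of all genes were lower and 16.6% higher, so the share lower was near that of all genes. With factors from edgeR's trimmed mean of M-values (TMM) the counts were 13 lower and 4 higher, where 33.8% and 31.8% of all genes were. This comparison shares the 3-week libraries with the one before it, and the marker genes of these libraries go against their labels. Hist1h2bc was 6.68, 4.98 and 6.12 CPM in the libraries labelled kidney and 578, 224 and 118 CPM in those labelled spleen, against 29.6 to 52.8 CPM in kidney and 2.59 to 7.77 CPM in spleen at 3 weeks. The libraries labelled 24-week kidney lay nearer to 3-week spleen than to 3-week kidney. The cell mixes also differed. Cells with a Cd8a or Cd8b1 UMI and no Cd4 UMI were 549 of 1224, 648 of 1441 and 651 of 1368 in the libraries labelled 24-week kidney. At 3 weeks in kidney they were 3343 of 3469, 4291 of 4496, 4904 of 5105, 4108 of 4277 and 4667 of 4859. Between the 3-week and the 24-week libraries labelled kidney, mitochondrial counts were 2.06 to 2.38% and 5.07 to 5.22%, and Malat1 was 35434 to 38386 and 17844 to 18697 CPM. The 4 B cell markers summed to 11.5 to 26.4 and 78.7 to 211 CPM, and the 5 myeloid markers to 62.0 to 166 and 1.30 to 4.33 CPM. The part of the mitochondrial share, Malat1 and these markers in the differences was not tested.

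At 1 week, CD8 T cells of the accepted kidney had more histone RNA than those of the accepted recipient spleen. The summed level was 2.84-fold higher by geometric means, with arithmetic means of 4268 ± 283 against 1596 ± 698 CPM (SD, n = 3 each), without overlap (exact permutation p = 0.1, the smallest possible). The ratio to Mki67 and Top2a was 7.52 ± 2.96 in kidney and 11.1 ± 0.390 in spleen, with overlap (exact permutation p = 0.2). Of 56 members tested 46 were higher in kidney and 0 lower by edgeR, and 50 and 0 at an unadjusted p under 0.05, where 27.3% of all genes were higher and 24.1% lower. DESeq2 gave 42 and 0, where 24.6% and 22.1% of all genes were. The median log2 difference was 1.46, and that of all genes was 0.00. Hist1h2bc showed the largest difference, 133, 143 and 104 CPM in kidney and 11, 9.23 and 17.0 CPM in spleen (3.33 ± 0.20, adjusted p = 5.11e-07, edgeR). In cells without a Mki67 or Top2a UMI, 31 of 39 members were higher and 0 lower, where 23.8% and 22.7% of all genes were, and the difference for Hist1h2bc was 4.04. Mki67 and Top2a were also higher in kidney, with log2 differences of 2.07 and 2.11. Cells with a Cd8a or Cd8b1 UMI and no Cd4 UMI numbered 4051, 2647 and 6831 of 5039, 3021 and 8407 in kidney and 1610, 1806 and 1708 of 3985, 4357 and 3571 in spleen. In these cells alone 45 of 54 members were higher and 0 lower, where 29.8% and 19.4% of all genes were. Over all cells, Cd4 was 16.8 to 31.9 CPM in kidney and 56.1 to 61.4 CPM in spleen, and the 4 B cell markers summed to 8.50 to 9.36 CPM and 464 to 929 CPM. The 5 myeloid markers summed to 41.6 to 104 CPM in kidney and 12 to 23.1 CPM in spleen, and mitochondrial counts were 3.69 to 4.49% and 5.46 to 6.12%. The part of the B cell and myeloid markers and of the mitochondrial share in the difference was not tested.

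Rejecting and accepted kidney at 1 week did not differ detectably in summed histone level, which was 4554 ± 3771 CPM (SD, n = 2) and 4268 ± 283 CPM (n = 3, exact permutation p = 0.8, smallest possible 0.2). The ratio to Mki67 and Top2a was 2.49-fold lower by geometric means in rejecting kidney, with arithmetic means of 2.88 ± 0.343 against 7.52 ± 2.96, without overlap between libraries, at p = 0.2 by the exact permutation test, the smallest possible. Against G2 and mitosis genes as reference the log2 difference in this ratio was 0.17 in place of -1.32. Of 58 members tested 24 were higher and 6 lower by edgeR on library totals, where 48.8% of all 12533 genes were higher and 10.5% lower, so both shares were near those of all genes. The log2 changes of all genes had a median of 0.70, and that of the members was 1.11. TMM factors brought the all-gene median to about 0 and gave 11 members higher and 9 lower, where 27.5% of all genes were higher and 25.7% lower. Leaving out either rejecting library leaves 1, which is then assumed to vary like the accepted libraries, since the spread comes from those alone. Without library 3, 9 of 58 were higher and 17 lower, where 42.7% and 12.2% of all genes were. Without library 2, 40 of 60 were higher and 5 lower, where 45.3% and 9.55% of all genes were. Without library 1 of the accepted kidney 14 of 57 were higher and 5 lower, where 46.2% and 8.26% of all genes were, and without its library 2 the counts were 15 of 57 and 5, where 43.4% and 8.68% were. The accepted libraries are the ones used in the comparisons of time and tissue above.

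With library totals, TMM factors, DESeq2 and each library left out in turn, 12 of the 30 calls were kept, in both directions, where 2 of the left-out fits rest on 1 rejecting library. Of these, Hist1h2bl, Hist1h2an, Hist1h4n, Hist1h4f, Hist1h2bg, Hist1h2be and Hist1h4c were higher and Hist3h2ba, Hist3h2a, Hist1h2ap, Hist1h4i and Hist1h2bc lower, some of them named after their values were seen. How many of the calls of all genes were kept under the same settings was not counted, so 12 of 30 has no background share beside it. With library sizes set to Mki67 and Top2a UMIs, 2 members were called higher and 7 lower, where 5.23% and 1.82% of all genes were. In cells without a Mki67 or Top2a UMI, 4 of 44 were higher and 15 lower, where 46% and 11.4% of all genes were. Hist1h4n was 2.32, 1.49 and 1.5 CPM in accepted and 14.3 and 25.6 CPM in rejecting kidney (log2 difference 3.53 ± 0.33, adjusted p = 4.54e-05). Hist1h2bl, an H2B gene, was 1.27, 1.20 and 1.04 CPM and 10.9 and 54.5 CPM (4.84 ± 0.57, adjusted p = 1.41e-04). Both rejecting libraries lay above all 3 accepted ones for these genes, which passed the test on the same values, so this order adds no support. Hist1h4n and Hist1h2bl share 85.6% and 82.8% of their 50-base words with other genes. Hist1h4m, the near copy of Hist1h4n, was 1.87, 1.77 and 0.655 CPM in accepted kidney and had 0 UMIs of 5459001 in rejecting kidney, at least 2.60-fold lower against a floor of 3 counts over the group.

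The members lower in rejecting kidney included abundant ones. Hist1h2bc was 133, 143 and 104 CPM in accepted and 19.4 and 26.3 CPM in rejecting kidney (log2 difference -2.46 ± 0.23, adjusted p = 4.84e-05, edgeR). Hist1h2ap was 466, 515 and 182 CPM and 18.5 and 87.3 CPM (-2.85 ± 0.65, adjusted p = 0.00500). Hist1h4i was 49.5, 48.1 and 89.9 CPM and 8.41 and 15.6 CPM (-2.36 ± 0.39, adjusted p = 8.81e-04). In each, both rejecting libraries lay below all accepted ones. The share of all genes so ordered between these libraries was not counted. These members passed the test on the same values, so the order adds no support. Hist3h2a (chr11:58954685-58956830, plus) was 18.8, 22.1 and 25.2 CPM and 4.63 and 1.62 CPM (-2.89 ± 0.38, adjusted p = 2.59e-04), and it shares 31.5% of its words with Trim17 on the same strand. The most abundant members did not pass the test: Hist1h1b was 1016, 895 and 1444 CPM in accepted and 362 and 1504 CPM in rejecting kidney (-0.26 ± 0.49, adjusted p = 0.666), Hist1h1c had a log2 difference of -0.03 and Hist1h1e of -0.66. Among the proliferation genes Top2a passed (1.56 ± 0.42, adjusted p = 0.0113) and Mki67 did not (0.93 ± 0.48, adjusted p = 0.122).

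By family the rejecting kidney showed 0 of 5 H1 genes called, with a median log2 difference of -0.03, while 8 of 15 H2A, 8 of 16 H2B, 3 of 9 H3 and 5 of 13 H4 genes were higher and 2, 2, 0 and 2 lower, where 48.8% of all genes were higher and 10.5% lower. H1 genes were 53.9, 53.7 and 62.4% of histone UMIs in accepted and 47.5 and 42.6% in rejecting kidney, and H3 genes were 5.09, 4.74 and 4.65% and 11.8 and 15.4%. The H3 share was higher, and the H1 share lower, in both rejecting libraries than in all 3 accepted ones. The H2B share (8.43 to 9.12% in accepted, 11.5 and 11.8% in rejecting) and the H4 share (7.83 to 9.77%, 14.1 and 14.4%) were also higher without overlap. The H2A share overlapped. In the spleen at 1 week the H3 share was 4.10, 4.0 and 4.83% in accepted and 12.9, 12.8 and 10.8% in rejecting libraries, also without overlap. The H1 share in spleen did overlap, at 62.8, 63.2 and 51.9% and 36.6, 23.8 and 55.8%. The H2B share in spleen was 5.79 to 6.71% and 6.89 to 9.95%, without overlap, and the H2A and H4 shares overlapped. No test was run on the family shares. Within dividing cells alone, 33 of 58 members were higher in rejecting kidney and 9 lower by edgeR, where 47.7% of all genes were higher and 11.9% lower. TMM factors gave 18 and 12, where 27.9% and 26.5% of all genes were. Without library 3 of the rejecting kidney, which leaves 1 rejecting library, 14 of 57 were higher and 10 lower, where 35.6% and 10.6% of all genes were. Hist1h3c had a log2 difference of 2.26 ± 0.30, adjusted p = 6.58e-05 in these cells, and Hist1h2bc of -2.21 ± 0.24, adjusted p = 1.48e-05. The share of mitochondrial counts was 1.39 and 1.42% in rejecting and 3.69 to 4.49% in accepted kidney, and its part in these differences was not tested. The 5 myeloid markers summed to 41.6 to 104 CPM in accepted and 139 to 178 CPM in rejecting kidney, where Itgam was at 0, and their part was not tested. Cd4 was 16.8 to 31.9 CPM in accepted kidney and 0 in both rejecting libraries. In cells with a Cd8a or Cd8b1 UMI and no Cd4 UMI, 27 of 58 members were higher and 5 lower, where 48.2% and 10.4% of all genes were.

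In the spleen at 1 week the rejecting and accepted libraries overlapped in summed histone level, 2370 ± 1395 against 1596 ± 698 CPM (SD, n = 3 each, exact permutation p = 0.5, smallest possible 0.1), and in the ratio to Mki67 and Top2a, 6.80 ± 4.96 against 11.1 ± 0.390 (p = 0.4 by the exact permutation test). Against G2 and mitosis genes as reference the direction of the ratio turned, and it was higher in rejecting spleen by geometric means. Of 45 members tested 16 were higher and 3 lower by edgeR, where 36.1% of all genes were higher and 12.3% lower, so the share higher was near that of all genes. TMM factors gave 12 higher and 4 lower, where 24.1% and 23.2% of all genes were. Mki67 and Top2a library sizes gave 5 higher and 10 lower, where 3.71% and 38% of all genes were. In cells without a Mki67 or Top2a UMI 5 of 25 were higher and 5 lower, where 34.9% and 12.4% of all genes were. Hist1h3c was 7.67, 10.7 and 30.4 CPM in accepted and 101, 150.1 and 99.8 CPM in rejecting libraries (log2 difference 2.70 ± 0.47, adjusted p = 4.02e-04). Hist1h4n was 0.523, 0.743 and 0.602 CPM and 21.4, 78.3 and 9.07 CPM (5.22 ± 0.65, adjusted p = 3.21e-05). Every rejecting library lay above every accepted one for both, an order in the values tested that adds no support, and the share of all genes so ordered was not counted. Hist1h2ag, an H2A gene sharing 78.9% of its words, was 0.261, 0.318 and 0.451 and 7.55, 6.52 and 9.07 CPM (4.45 ± 0.60, adjusted p = 5.48e-05). Its 6.52 CPM in library 2, which held 153266 UMIs, was the lowest level above 0 that any member had there. Hist3h2a was 15.9, 13.2 and 9.40 and 2.52, 0 and 6.05 CPM (-1.77 ± 0.57, adjusted p = 0.0209). Hist1h2bc did not pass the test, at 11, 9.23 and 17.0 and 10.1, 13.0 and 4.54 CPM (-0.63 ± 0.49, adjusted p = 0.316). Library 2 of the rejecting spleen held 56 cells, 1 of which held 448 of the library's 610 histone UMIs. The ratio to Mki67 and Top2a in this library was 12.4, against 3.13 and 4.82 in the other rejecting libraries and 10.9 to 11.5 in accepted spleen. Without library 2 of the rejecting spleen, 12 of 54 members were higher and 3 lower, where 33.3% and 10.7% of all genes were. Without library 1 of the rejecting spleen 10 of 52 were higher and 1 lower, where 29.1% and 8.52% of all genes were. Without library 1 or without library 2 of the accepted spleen, 9 of 30 were higher and 2 lower, where 40.3% and 13.6%, and 40.7% and 12.5%, of all genes were. The matrices of the 2 groups held different cell mixes: cells with a Cd8a or Cd8b1 UMI and no Cd4 UMI were 1610 of 3985, 1806 of 4357 and 1708 of 3571 in accepted and 350 of 353, 55 of 56 and 316 of 317 in rejecting spleen, and Cd4 was 56.1 to 61.4 and 1.51 to 13.0 CPM. In these cells alone 18 of 40 members were higher and 2 lower, where 39.9% and 11.1% of all genes were. Over all cells, the 4 B cell markers summed to 464 to 929 CPM in accepted and 65.2 to 272 CPM in rejecting spleen. Mitochondrial counts were 5.46 to 6.12% and 1.73 to 1.90%, and Malat1 was 11912 to 15749.5 and 18379.8 to 34077 CPM. The part of these 3 in the differences was not tested.

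The rejecting-against-accepted difference was not shown to differ between tissues for any member. The interaction was called for 0 of 59 members in either direction by edgeR, with 0 positive and 2 negative at an unadjusted p under 0.05, where 1.08% of all genes were called positive and 0.343% negative. DESeq2 called 0 positive and 1 negative, where 1.42% and 1.88% of all genes were. The kidney and spleen comparisons share no library, but the spleens came from graft recipients, so they may share mice. Both also carry the same difference in strain. Over the 45 members tested in both, their log2 differences had Pearson's r of 0.852 and Spearman's rho of 0.912, a description across genes that share libraries and depth. Both called 15 members in the same direction, 13 higher and 2 lower, which is 68.2% of the 22 kidney calls among these members and 78.9% of the 19 spleen calls. Over the 10395 genes tested in both, 4170 were called in the same direction, 66.4% of the kidney and 82.7% of the spleen calls, with Pearson's r of 0.809 and Spearman's rho of 0.811, so the members' overlap was near that of all genes.

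**Figure D5:**
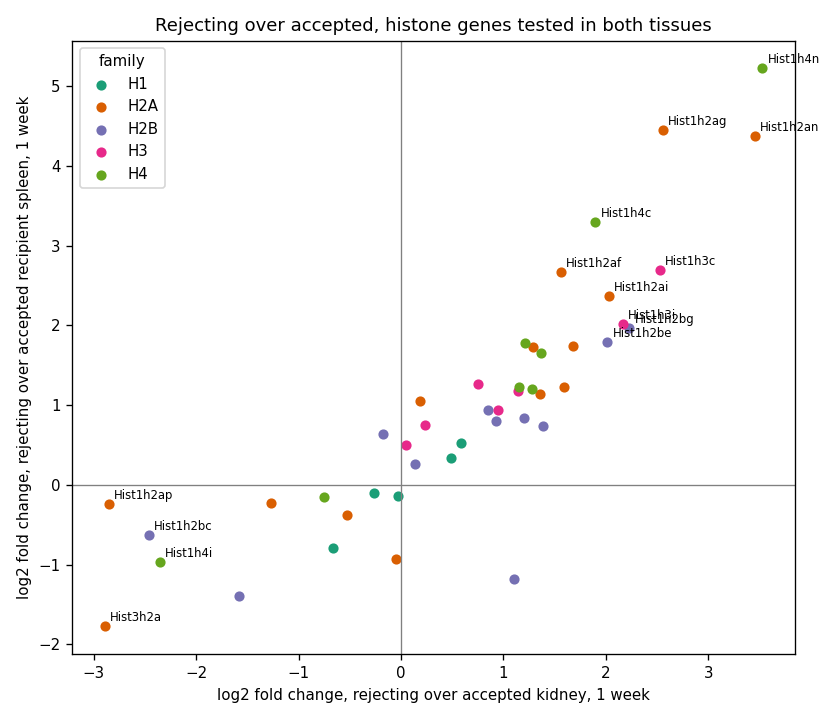
Log2 difference between rejecting and accepted libraries at 1 week for the 45 histone genes tested in both tissues, kidney on the horizontal and spleen on the vertical axis, 1 point per gene. Hist1h4n, Hist1h2an and Hist1h2ag lie at the upper right, Hist3h2a lies below 0 on both axes, and Hist1h2bc is at -2.46 in kidney and -0.63 in spleen.

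Set against all accepted libraries of any time and tissue, the CPM of 5 of 61 members was higher in every rejecting library (Hist1h2ag, Hist1h2an, Hist1h2be, Hist1h3c and Hist1h4n), where 8.85% of 16444 genes were, and that of 1, Hist3h2a, was lower in every rejecting library, where 1.56% of genes were. The Hist1h2ag level in library 2 of the rejecting spleen, 6.52 CPM, was the lowest above 0 that any member had there. As a share of each library's histone UMIs, Hist1h3c was 3.77 to 9.37% in the 5 rejecting libraries and 0 to 1.87% in the 22 accepted ones. By this share Hist1h2af, Hist1h2ag, Hist1h2ai, Hist1h2an, Hist1h3g and Hist1h4n were also higher in every rejecting library. Hist1h4i, Hist3h2a and Hist3h2ba were lower in every one. These shares were not tested, and no share of all genes stands beside them. Hist1h3c shares 41.8% of its 50-base words with Hist1h3b. The rejecting matrices list 32285 genes and the others 17517 to 19497, and reads of DBA/2J recipients were mapped to a C57BL/6J genome. The part of either in these differences was not tested.

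The other histone and cell-cycle lists gave a context for these values. Of 10 replacement histone genes tested, whose mRNAs are polyadenylated and made throughout the cell cycle, 0 were higher and 6 lower in rejecting kidney, with a median log2 difference of -1.31, among them H3f3a (-1.67 ± 0.17, adjusted p = 6.68e-05) and H2afz (-1.37 ± 0.37, adjusted p = 0.0113). In rejecting spleen 0 of 9 were higher and 4 lower, where 36.1% and 12.3% of all genes were. Of 22 S-phase DNA replication genes 5 were higher and 0 lower in rejecting kidney, with a median of 0.14, and of 15 G2 and mitosis genes 0 were higher and 1 lower, with a median of 0.16, while the median of all genes was 0.70 and 48.8% of them were higher and 10.5% lower. Between 1 and 3 weeks in accepted kidney, 21 of 22 S-phase genes (median -2.02) and 15 of 15 G2 and mitosis genes (median -5.17) were lower, where 21.5% of all genes were. In dividing against other cells, 22 of 22 and 15 of 15 were higher, with medians of 1.97 and 3.85, where 27.5% of all genes were higher.

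Of 14 genes for histone pre-mRNA processing and transcription, 7 were higher and 2 lower in rejecting kidney, where 48.8% and 10.5% of all genes were, so the share higher was near the background. In dividing cells 13 were higher and 1 lower, where 27.5% and 15.6% of all genes were. Slbp was 170.2 ± 12.2 CPM in dividing and 82.2 ± 9.76 CPM in other cells (SD, n = 3, log2 difference 1.06 ± 0.05, adjusted p = 6.65e-12, edgeR). It did not pass the test between rejecting and accepted kidney (0.10 ± 0.23, adjusted p = 0.742) or between 3 weeks and 1 week (-0.06 ± 0.09, adjusted p = 0.558). Npat, the coactivator of histone gene transcription, named after its values were seen, was higher in rejecting kidney (1.57 ± 0.17, adjusted p = 8.55e-05). Of 9 histone chaperone genes 0 were higher and 7 lower at 3 weeks, where 53.5% and 21.5% of all genes were. In dividing cells 9 were higher, where 27.5% of all genes were, and in rejecting kidney 0 were higher and 1 lower, where 48.8% and 10.5% were.

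Outside the CD8 matrix, the other CD45+ cells of the 2 rejecting kidney libraries had 490 and 1465 CPM of histone RNA, with ratios to Mki67 and Top2a of 2.40 and 2.82 and Hist1h3c at 22.8 and 115 CPM. Their dividing cells had 1348 and 3754 CPM and the others 266 and 387 CPM. In naive spleen the other CD45+ cells had 861 to 962 CPM, above the 403 to 468 CPM of the CD8 cells of the same spleens, with 2007 to 3809 CPM in dividing cells and 661 to 851 CPM in the others. The ratio to Mki67 and Top2a in these naive cells was 8.63 to 18.1. In the cells with a Mki67 or Top2a UMI alone it was 2.47 to 3.26 in naive spleen and 1.37 and 2.31 in rejecting kidney. These groups differ in tissue as well as in treatment, no test was run, and no accepted counterpart was analysed here.

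Over the 32 libraries, and leaving out the members themselves, the genes whose log2 (CPM + 1) followed the summed histone level most closely among 7488 genes were Hmgb2 (Pearson's r 0.957), Lmnb1 (0.932), Cdk1 (0.931), Lgals1 (0.928) and Kif15 (0.926), with Mki67 at 0.910 and Top2a at 0.891. These libraries share group and depth, so the values describe likeness only.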

How the data were processed

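Counts of UMIs per gene and cell, deposited by the authors, were read for CD8 T cells of 9 groups and for the CD45+ cells of rejecting kidney and naive spleen. The other 5 samples of CD45+ cells, those from accepted grafts and their spleens, were not analysed here. Per the study's methods, sorted CD45+ cells were captured with a 10x Chromium Next GEM 3′ kit, sequenced, aligned with Cell Ranger to mm10, filtered in Seurat and annotated by hand. The Cell Ranger version and the filter limits are not given in the sources used here. No further cell filter or doublet caller was applied. UMIs were summed per barcode tag, and CPM were computed here from these counts over all genes of the matrix.

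Differences were tested with edgeR 4.0.16 in R 4.3.3 (quasi-likelihood, library totals, filterByExpr with a minimum count of 10, Benjamini-Hochberg adjustment over all genes tested, threshold 0.05). Summed values and ratios were tested with two-sided exact permutation tests on log2 values, computed with numpy 2.4.6. TMM factors, DESeq2 1.42.0, no filter, left-out libraries, cells with a Cd8a or Cd8b1 UMI and no Cd4 UMI, and cells without a Mki67 or Top2a UMI were alternatives. Library sizes from Mki67 and Top2a UMIs and the tag number as block were chosen after the data were seen. The edgeR step was tested on simulated data. Cells were thinned to 1000 UMIs (seed 7). An interval for a count of 0 uses a floor of 3 counts and covers counting error only.

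Genes named are Mki67 and Top2a, the 15 members of highest average CPM, and the 5 members of largest called change per comparison, with exceptions stated. The members and lists were chosen with earlier results of these data known. Stem-loops were read from GENCODE vM21 transcripts (GRCm38) and promoters from RefSeq (GRCm38.p6).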

Additional observations from a re-analysis of the deposited data

Results flagged for a closer look

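In groups of 4 to 10 libraries, 3 of 57 values of named genes had 1 library far from the others, where chance flags about 1 in 20 groups. In accepted kidney at 3 weeks, Hist1h4d was 50.9 CPM in 1 library and 106 to 121 CPM in the other 4. In naive spleen, Hist1h2ap was 36.1 CPM in 1 library and 19.4 to 21.5 CPM in the others. Hist1h3c was 0.404 CPM in 1 naive library and 0 in the others, a level at the limit of detection.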

How the results depend on the processing

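The direction of most named genes held under the alternatives: outside the left-out libraries, 572 values for single genes kept direction and call, 38 lost the call and 19 turned. Counts for dividing against other cells and for kidney against spleen stayed within 1.5 times. For rejecting against accepted kidney, members higher were 11 with TMM factors (27.5% of all genes), 12 with DESeq2 (25.9%), 37 without the filter (39.2%) and 2 with Mki67 and Top2a library sizes (5.23%), and 4 higher (46%) and 15 lower (11.4%) in cells without a Mki67 or Top2a UMI. For the spleen, Mki67 and Top2a library sizes gave 5 higher (3.71% of all genes) and 10 lower (38%), and cells without such a UMI 5 (34.9%) and 5 (12.4%). For 3 weeks against 1 week, the same settings gave 36 (98%) and 11 (0.864%), and 8 (55.6%) and 16 (17.4%). For 24 against 3 weeks, TMM gave 4 higher (31.8%) and 13 lower (33.8%), and DESeq2 4 (30.5%) and 12 (31.6%). DESeq2 gave 1 negative interaction (1.88%), and in dividing cells TMM and DESeq2 gave 18 (27.9%) and 17 (24.4%) higher. The causes were not tested.

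With S-phase genes as reference, the log2 ratio was -0.41 for rejecting against accepted kidney, -0.63 for 3 weeks against 1 week, -0.19 for 24 against 3 weeks and -0.043 for kidney against spleen. With G2 and mitosis genes it was 0.17 for rejecting kidney and 0.35 for rejecting spleen.

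With Mki67 and Top2a library sizes, which leave 98% of all genes higher at 3 weeks and contain Top2a itself, the 3-week turns follow from the scaling. The 3-week change turned for Hist1h1c (2.76), Hist1h1d (1.95), Hist1h1e (0.97), Hist1h2bc (1.42), Hist1h2be (2.66), Hist1h3e (1.39), Hist1h4c (2.55), Hist1h4d (2.14), Hist1h4h (0.29), Hist2h2ac (1.64), Hist2h2bb (2.35) and Top2a (0.39), and Hist2h2bb turned in rejecting kidney (-0.083). In cells without a Mki67 or Top2a UMI the 3-week change turned for Hist1h1d (0.062), Hist1h2be (0.43), Hist1h3e (0.052), Hist1h4c (0.24), Hist1h4d (0.60) and Hist2h2bb (0.75).

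Leaving out 1 library at a time gave 9 to 40 members higher and 5 to 17 lower for rejecting kidney, where each extreme rests on 1 rejecting library assumed to vary like the accepted ones. The log2 difference of Hist2h2bb was then -0.027 (without library 3) to 2.07. Left-out libraries gave 9 to 15 higher and 1 to 3 lower for rejecting spleen, 0 to 1 negative interactions, 14 to 38 higher in dividing cells of rejecting kidney and 0 to 2 higher at 24 weeks. Shares of all genes called are given above for only some of these fits, and not for the 38 members or the 24-week counts. The ranges of counts alone therefore do not set the members apart from all genes. The 3-week log2 changes were -2.22 to -2.12 for the sum and 0.83 to 1.36 for the ratio. The 24-week ones were -0.85 to -0.72 and 2.64 to 2.90. In both, too few regroupings remain to reach p = 0.05 by the exact permutation test.

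Tag numbers shared by kidney and spleen at 1 week do not pair the mice in the labels: deviations of same-numbered libraries correlated at 0.156, 0.0595 and 0.246. With the number as a replicate block, 50 members were higher and 0 lower in kidney, where 28.7% and 25.8% of all genes were, and with the number within each outcome as a replicate block the interaction was called for 0 of 59 members in either direction, where 0.936% of all genes were positive and 0.48% negative and library 1 of the rejecting spleen has no partner. Without the library as block, 48 members were higher and 0 lower in dividing cells, where 14.8% and 4.36% of all genes were. No paired analysis was possible for rejecting against accepted libraries or between time points because those come from different recipients. The 2 rejecting kidney libraries and the 56 cells of 1 rejecting spleen library limit those comparisons.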
